A study of Mus musculus with 8 samples.

Results

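The genes described here encode the glutathione and thioredoxin defences of the cell against oxidants and reactive electrophiles, in mouse peritoneal macrophages with and without the Fc receptor γ chain. They were chosen by symbol: the glutathione S-transferase families Gsta, Gstk, Gstm, Gsto, Gstp, Gstt and Mgst, the peroxiredoxins (Prdx), glutathione peroxidases (Gpx) and thioredoxin reductases (Txnrd), together with Gclc, Gclm, Gss, Nqo1, Srxn1, Txn1, Sod1 to Sod3, Cat, Nfe2l2 and Keap1. The rule itself used no measured value, but the members were chosen with earlier results of these data known. It found 50 of the 16593 genes with a named probe on the array, measured by 79 probes. Gsr, glutathione reductase, is in the rule but was not analysed here.

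The RNA came from resident macrophages washed from the peritoneum of naïve C57BL/6 mice and left to adhere overnight in medium containing macrophage colony-stimulating factor. Each of 4 groups held 2 samples: FcgKO cells given IFNγ at 10 ng/ml for 6 h, FcgKO cells left unstimulated, WT cells given the same IFNγ, and unstimulated WT cells. FcgKO cells lack the γ chain, encoded by Fcer1g, the signalling adaptor of activating Fc receptors. How the knockout line was made, and the age and sex of the mice, are not given in the sources used here. Whether replicates came from separate mice or wells is not stated in the labels. The p-values therefore reflect the spread between these samples alone, which could be technical. IFNγ is the cytokine with which T and NK cells activate macrophages.

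Fcer1g itself had an intensity of 107 and 98.5 in FcgKO cells with IFNγ and of 95.7 and 95.6 in unstimulated FcgKO cells, against 16987 and 18350 in WT cells with IFNγ and 17567 and 18350 in unstimulated WT cells. Without IFNγ this was at least 174-fold lower in FcgKO. The median probe of an array had an intensity between 102.98 and 103.02, which served as the lower end of the scale, and replicates correlated across probes with r from 0.996 to 0.9972. Of the 6 measured macrophage markers, 0 lay under that median on all arrays. Lyz2, lysozyme, stood at the brightest value of the array, 22479, on 5 of 8 arrays, so its signal could not show a difference there. The other 5 markers summed to 14530 to 17216 in FcgKO samples and 15440 to 22414 in WT samples. Cd14 was the largest part of that sum on every array. It averaged 7501 in FcgKO against 9455 in WT with IFNγ, and 10261 against 13994 without. Adgre1, Itgam and Fcgr1 had higher means in FcgKO in both conditions. Mertk averaged 967 in FcgKO against 1558 in WT with IFNγ, and 763 against 728 without. In bulk RNA, fewer cells of a type and less RNA per cell cannot be told apart.

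Glutathione is a tripeptide that serves as the main soluble thiol of the cell. Glutamate-cysteine ligase, of which Gclm is the modifier subunit and Gclc the catalytic subunit, makes its precursor, and glutathione synthetase (Gss) completes it. Peroxidases and transferases then spend glutathione on peroxides and electrophiles, while peroxiredoxins rely on thioredoxin and its reductases. Many of these genes are targets of the transcription factor Nrf2, encoded by Nfe2l2. The adaptor Keap1 delivers Nrf2 to degradation until oxidants or electrophiles modify its cysteines, whereupon Nrf2 binds the antioxidant response element together with a small Maf protein. Macrophages draw on this system because they make superoxide and nitric oxide when they are activated.

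The promoters of the members were read for 2 short motifs, in windows from 250 bases before to 50 bases after each RefSeq transcription start (GRCm38.p6). Of the 50 members, 46 had such a window. The core of the antioxidant response element was searched as TGACNNNGC on both strands, and stood in the windows of 9 of these 46 members and of 14% of the 27025 genes with a window. Among the 10 members that were lower in FcgKO in at least 1 condition, 5 held it (Gclm, Gsta3, Nfe2l2, Srxn1 and Txnrd1), against 4 of the 36 other members with a window. It also stood in 5 of the 8 members higher with IFNγ in either genotype (Gclm, Mgst1, Nfe2l2, Srxn1 and Txnrd1). Of the 13 members lower with IFNγ in either genotype, 2 held it (Gsta3 and Sod1). The second motif, the gamma-activated site TTCNNNGAA, stood in 7 of the 46 members and 9.55% of genes with a window. It stood in 2 of those 10 members, 3 of those 8 and 0 of those 13. These sets come from calls in the same data, and differences in motif share were not tested. The 4 antioxidant response element matches upstream of the start in the 10 lower members are shown. The motif is in capitals, 5′ to 3′ on the strand of the gene. In Gclm and Txnrd1 the match is on the opposite strand, and the capitals are its reverse complement.
Gclm, chr3:122245393-122245461, plus strand: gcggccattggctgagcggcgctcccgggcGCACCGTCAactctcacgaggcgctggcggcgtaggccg
Gsta3, chr1:21240434-21240502, plus strand: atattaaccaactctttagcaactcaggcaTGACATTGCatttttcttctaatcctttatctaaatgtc
Txnrd1, chr10:82859084-82859152, plus strand: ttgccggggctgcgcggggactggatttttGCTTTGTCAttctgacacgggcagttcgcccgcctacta
Nfe2l2, chr2:75704865-75704913, minus strand: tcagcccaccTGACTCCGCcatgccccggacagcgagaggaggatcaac
The motif began 134 bases before the start in Gclm, 121 in Gsta3, 92 in Txnrd1 and 240 in Nfe2l2. A match describes the letters of the window and does not show binding.

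Which redox genes respond to IFNγ was the first comparison. In FcgKO cells 5 members rose and 12 fell, or 34.0% of the 50, where 12.2% of all genes were called, 5.07% higher and 7.15% lower. In WT cells 8 rose and 10 fell, or 36.0%, where 13.3% of all genes were called, 5.54% higher and 7.77% lower. A call means an adjusted p below 0.05. The same 5 rose in both genotypes: Nfe2l2, Keap1, Sod2, Mgst1 and Gstk1. Another 9 fell in both, among them the peroxidases Gpx1 and Gpx4, the transferases Gsta3, Gstm1 and Gsto1, the superoxide dismutase Sod1 and the mitochondrial thioredoxin reductase Txnrd2. No member rose in one genotype and fell in the other. A mean over the 8 arrays above the median probe, a split chosen after the values were seen, was found for 37 of the 50 members and for 8816 of all genes. Of these, 45.9% of members and 22.7% of genes were called in FcgKO, and 48.6% and 24.9% in WT. The median log2 fold change of the members was -0.09 in FcgKO and -0.07 in WT, against -0.02 and -0.01 over all genes. The FcgKO count rested on single samples: it was 8 without the first unstimulated FcgKO sample, 9 without the second, and 11 without either FcgKO sample given IFNγ.

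How the same genes differ between the genotypes was the second comparison. Every member called was lower in FcgKO. There were 8 such members among IFNγ-treated cells, or 16% of the 50, where 2.87% of all genes were called, 1.25% higher and 1.62% lower. Among unstimulated cells there were 4, or 8.0%, where 0.82% of all genes were called, 0.289% higher and 0.53% lower. Under the same split by mean intensity, 21.6% of members and 5.39% of genes were called with IFNγ, and 10.8% and 1.54% without. Gclm and Gsta3 were lower in both conditions. Gss, Nfe2l2, Srxn1, Txnrd1, Cat and Gstm1 were called lower with IFNγ, and Nqo1 and Sod2 without it. The medians were -0.05 on the log2 scale in both conditions, against 0.00 over all genes. These counts also leaned on single samples. With IFNγ the count was 4 without the first WT sample given IFNγ and 5 without either FcgKO sample given IFNγ. Without IFNγ it was 1 without the first unstimulated WT or the second unstimulated FcgKO sample, and 2 without either WT sample given IFNγ.

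**Figure D1:**
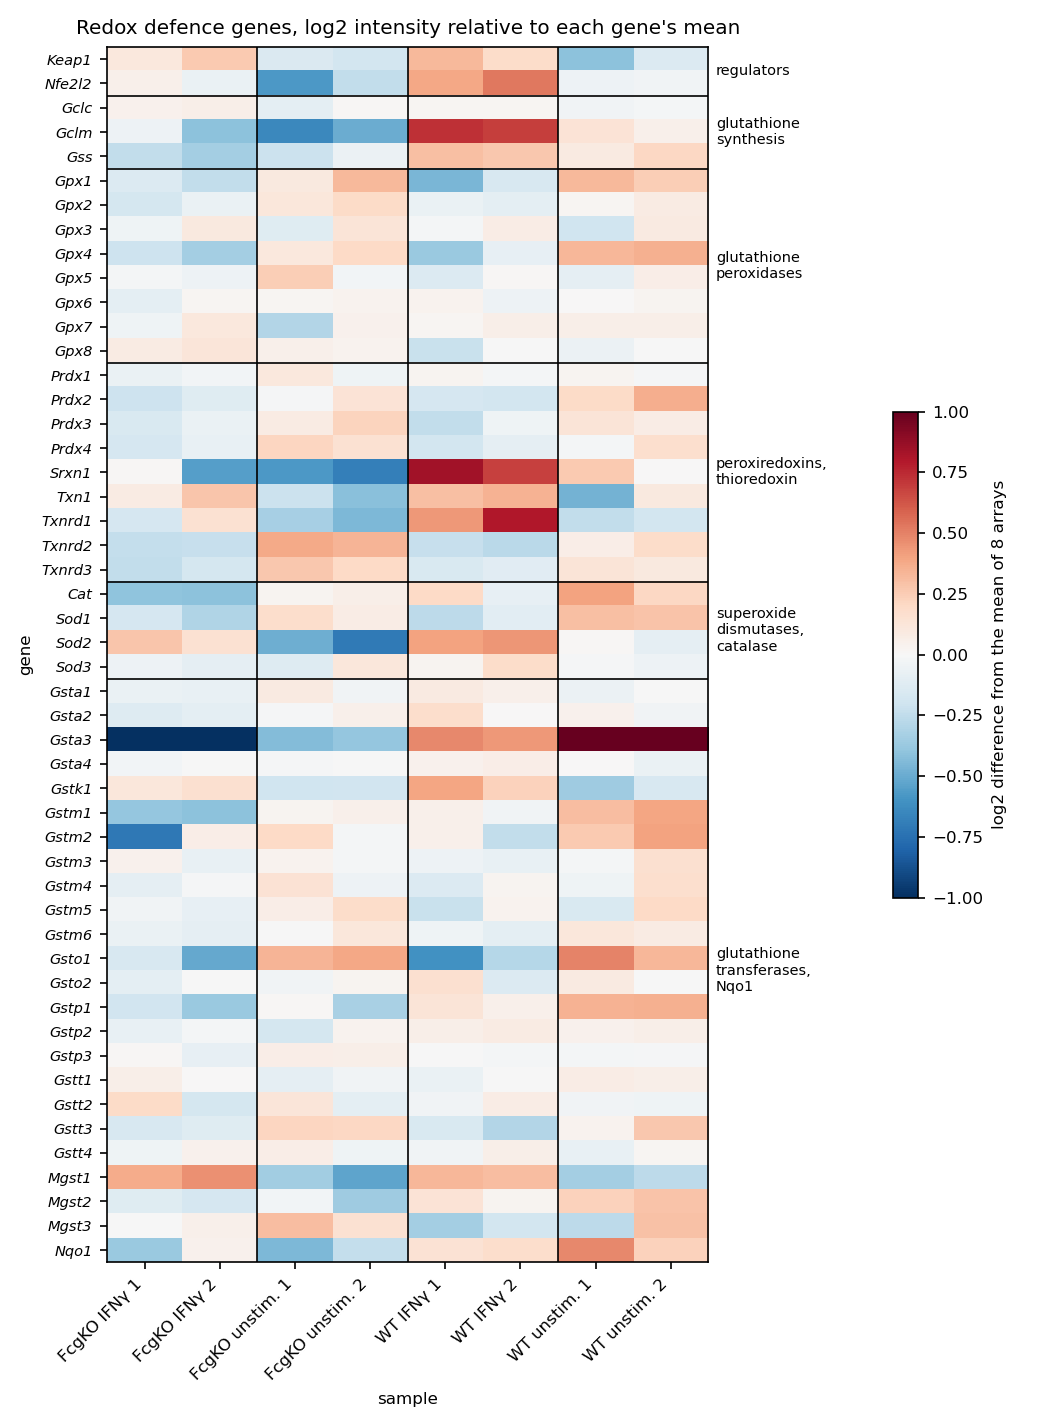
Background-corrected log2 intensity of the 50 redox genes on the 8 arrays, as the difference from each gene's mean over the arrays, with genes in rows by role and samples in columns, and with colours that go no further than a log2 difference of 1 either way. Gsta3 is below its mean in all 4 FcgKO samples and above it in all 4 WT samples.

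The 2 regulators rose with IFNγ in both genotypes. Nfe2l2 had an intensity of 257 and 240 in FcgKO cells with IFNγ, against 179 and 216 in unstimulated FcgKO cells. In WT cells it had 316 and 344 with IFNγ, against 242 and 245 without. Both stimulated samples were above both unstimulated ones in each genotype, and all FcgKO samples given IFNγ were below all WT samples given IFNγ. The log2 fold change with IFNγ was 0.40 ± 0.10 in FcgKO (SE, adjusted p = 0.0254) and 0.50 ± 0.10 in WT (adjusted p = 0.00742). FcgKO cells were lower than WT cells with IFNγ (-0.47 ± 0.10, adjusted p = 0.0391), and without IFNγ the difference was -0.37 and not called (adjusted p = 0.197). The genotype call was lost when any 1 of the 4 samples given IFNγ was left out (adjusted p up to 0.272). The FcgKO rise was lost without the first unstimulated FcgKO sample or either FcgKO sample given IFNγ (adjusted p up to 0.228), and the WT rise without the second WT sample given IFNγ (adjusted p = 0.084). With the mean of its 2 probes the FcgKO rise was 0.20 and the genotype difference -0.27, neither called (adjusted p = 0.101 and 0.0862), and the WT rise was 0.27 and still called.

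Keap1, the repressor of Nrf2, had 691 and 766 in FcgKO cells with IFNγ, against 588 and 574 in unstimulated FcgKO cells. WT cells had 802 and 730 with IFNγ, against 495 and 592 without. Stimulated and unstimulated samples did not overlap in either genotype. It rose by 0.34 ± 0.10 on the log2 scale in FcgKO (SE, adjusted p = 0.0469) and by 0.53 ± 0.10 in WT (adjusted p = 0.00412), and was called in neither genotype comparison. The FcgKO call was lost without 6 of the 8 samples taken singly, and the WT call without the first WT sample given IFNγ (adjusted p = 0.0525). The gene for the factor and the gene for its repressor thus rose together.

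Of the 3 genes of glutathione synthesis, 2 were lower in FcgKO cells with IFNγ and none was lower with IFNγ itself. Gclm had an intensity of 1909 and 1494 in FcgKO cells with IFNγ and of 1277 and 1409 in unstimulated FcgKO cells. It had 3263 and 3167 in WT cells with IFNγ and 2176 and 2044 in unstimulated WT cells. All 4 FcgKO samples were below all 4 WT samples. FcgKO cells stood at 0.529 times the WT mean with IFNγ (log2 fold change -0.94 ± 0.11, SE, adjusted p = 0.000842) and at 0.637 times it without (-0.67 ± 0.11, adjusted p = 0.0176). IFNγ raised Gclm in WT cells, to 1.52 times the unstimulated mean (0.62 ± 0.11, adjusted p = 0.00274). In FcgKO cells the change was 0.34 and not called (adjusted p = 0.0719, 95% interval 0.10 to 0.58 before adjustment). The genotype difference without IFNγ was not called by limma without background correction or with a background offset of 16 (adjusted p up to 0.0733). The difference without IFNγ was no longer called when 1 of 5 samples was left out, namely the first unstimulated WT sample or either of the unstimulated FcgKO or stimulated WT samples (adjusted p up to 0.237). The difference with IFNγ stayed called without each of the 8 samples.

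Gss had 152 and 145 in FcgKO cells with IFNγ, against 207 and 203 in WT cells with IFNγ. In unstimulated cells it had 155 and 168 in FcgKO, against 183 and 195 in WT. The genotypes did not overlap in either condition, but only the difference with IFNγ was called (log2 fold change -0.58 ± 0.08, SE, adjusted p = 0.0023), without IFNγ it was -0.29 (adjusted p = 0.190). Gss has 3 probes, and the other 2 were called lower with IFNγ as well (-0.51, adjusted p = 0.00194, and -0.33, adjusted p = 0.0226). IFNγ changed Gss in neither genotype by the test. The probe for Gclc, the catalytic subunit, stayed between 96.9 and 104 on all arrays, at the array median.

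**Figure D2:**
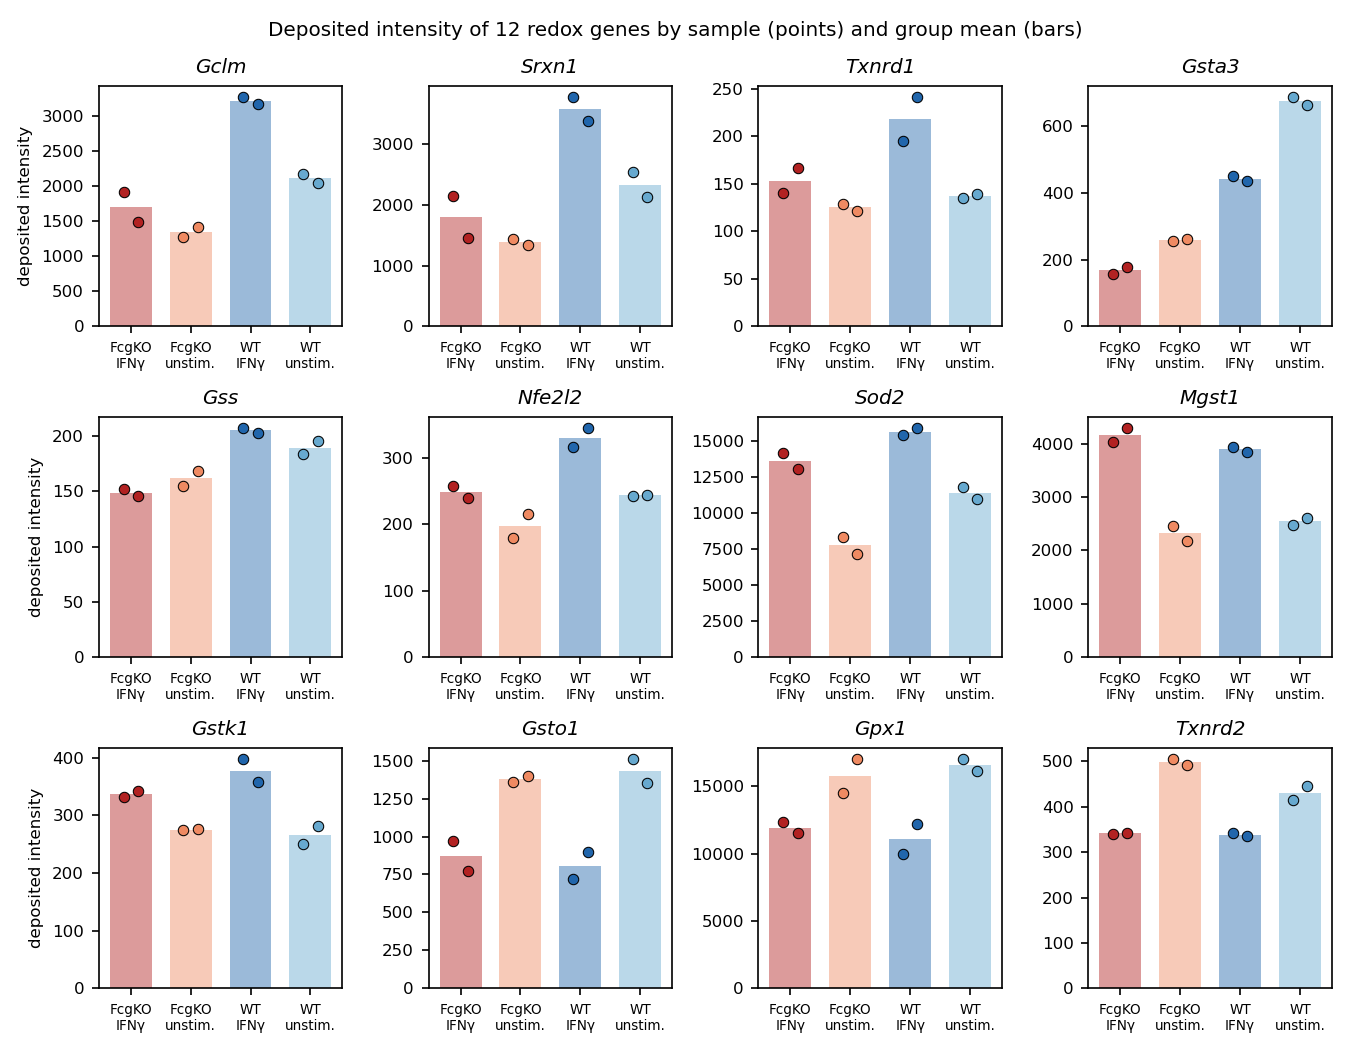
Deposited intensity of 12 redox genes in each sample (points) and as the mean of a group (bars), on linear axes that start at 0, with the groups in the order FcgKO with IFNγ, FcgKO unstimulated, WT with IFNγ and WT unstimulated. For Gclm, Srxn1, Gsta3 and Gss both FcgKO samples of a condition are below both WT samples of it, and for Mgst1, Gstk1, Gsto1 and Gpx1 the stimulated and unstimulated samples are apart in each genotype.

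Of the 8 glutathione peroxidases, none rose with IFNγ, 3 fell in FcgKO and 2 fell in WT, and none was called between the genotypes. Gpx1, the abundant cytosolic enzyme, had 12366 and 11493 in FcgKO cells with IFNγ, against 14524 and 16987 in unstimulated FcgKO cells. WT cells had 9937 and 12195 with IFNγ, against 16987 and 16146 without. Stimulated samples were below unstimulated ones throughout. Gpx1 fell in FcgKO (log2 fold change -0.40 ± 0.11, SE, adjusted p = 0.0331) and in WT, to 0.668 times the unstimulated mean (-0.59 ± 0.11, adjusted p = 0.00331). The FcgKO call was lost without either FcgKO sample given IFNγ or the second unstimulated one (adjusted p up to 0.26). Gpx4, which reduces lipid hydroperoxides within membranes and guards against ferroptosis, averaged 871 ± 55.5 with IFNγ against 1156 without in FcgKO cells (-0.42, adjusted p = 0.0147) and 901 ± 125 against 1316 in WT cells (SD, n = 2; -0.57, adjusted p = 0.00226). With the mean of the probes of Gpx4 these values were -0.23, not called, and -0.27, and the FcgKO call was lost without either unstimulated FcgKO sample or the second FcgKO sample given IFNγ (adjusted p up to 0.118). Gpx2, close to the array median at 106 to 126, was called lower in FcgKO (-0.27, adjusted p = 0.0313), and lost that call without 1 of 3 FcgKO samples (adjusted p up to 0.195).

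The peroxiredoxin and thioredoxin group held 9 genes, all above the array median on every array. With IFNγ 0 rose and 3 fell in FcgKO, and 2 rose and 3 fell in WT. Srxn1 and Txnrd1 were the 2 that rose, and the same 2 were lower in FcgKO than in WT cells given IFNγ. Both are classical Nrf2 targets.

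Srxn1 encodes sulfiredoxin, which repairs overoxidised peroxiredoxins. It had 2136 and 1459 in FcgKO cells with IFNγ and 1433 and 1331 in unstimulated FcgKO cells. In WT cells it had 3765 and 3383 with IFNγ and 2534 and 2127 without. With IFNγ the genotypes were well apart, and the FcgKO mean was 0.503 times the WT mean (log2 fold change -1.03 ± 0.15, SE, adjusted p = 0.00447). Without IFNγ the ratio was 0.593 and the difference was not called (-0.76 ± 0.15, adjusted p = 0.0547). Srxn1 rose in WT (0.63 ± 0.15, adjusted p = 0.0196), and its change in FcgKO was 0.36 and not called (adjusted p = 0.197). The genotype call with IFNγ was lost without the first WT sample given IFNγ (adjusted p = 0.0685), and the WT response without that sample, the second one or the second unstimulated WT sample (adjusted p up to 0.152).

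Txnrd1, the cytosolic thioredoxin reductase, had 140 and 167 in FcgKO cells with IFNγ and 129 and 122 in unstimulated FcgKO cells. In WT cells it had 195 and 241 with IFNγ and 135 and 139 without. Both stimulated groups lay above all 4 unstimulated samples, the WT one highest. It rose in WT to 1.59 times the unstimulated mean (log2 fold change 0.84 ± 0.13, SE, adjusted p = 0.00103), with a change of 0.38 in FcgKO that was not called (adjusted p = 0.0835). FcgKO cells with IFNγ had 0.704 times the WT mean (-0.63 ± 0.13, adjusted p = 0.0237), a call that was lost without the first FcgKO or the second WT sample given IFNγ (adjusted p up to 0.207).

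Txnrd2, the mitochondrial reductase, moved the other way. It had 341 and 343 in FcgKO cells with IFNγ against 505 and 492 without, and 343 and 335 in WT cells with IFNγ against 414 and 446 without. The stimulated samples of both genotypes lay within 335 to 343. Txnrd2 fell to 0.686 times the unstimulated mean in FcgKO (log2 fold change -0.59 ± 0.07, SE, adjusted p = 0.000186) and to 0.788 times it in WT (-0.38 ± 0.07, adjusted p = 0.00368). Txnrd3, the thioredoxin glutathione reductase best known from testis, was also called lower in both (-0.44 in FcgKO and -0.25 in WT), at intensities of 104 to 134. Its WT call was lost without any 1 of the 4 WT samples (adjusted p up to 0.163).

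Among the thiol peroxidases themselves, Prdx1 stayed between 15323 and 17238 on all arrays and was called in no comparison. Prdx2 fell in WT, where it averaged 3665 with IFNγ against 5018 without (log2 fold change -0.45, adjusted p = 0.00339), with -0.23 in FcgKO (adjusted p = 0.118). With the mean of the probes of Prdx2 the WT value was -0.14 and not called (adjusted p = 0.152). Prdx4, the peroxiredoxin of the endoplasmic reticulum, was called in FcgKO (-0.31, adjusted p = 0.0316) and had -0.21 in WT (adjusted p = 0.141), and its call was lost without any 1 of the 4 FcgKO samples (adjusted p up to 0.194). Mitochondrial Prdx3 had -0.26 in FcgKO and -0.25 in WT, not called. Txn1, thioredoxin, had 720 and 819 with IFNγ against 592 and 518 without in FcgKO cells, and 830 and 860 against 502 and 727 in WT cells. Its log2 changes, 0.50 in FcgKO and 0.51 in WT, missed the threshold (adjusted p = 0.0601 and 0.0506).

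The 2 intracellular superoxide dismutases went in opposite directions with IFNγ. Sod2, the mitochondrial manganese enzyme, had 14191 and 13028 in FcgKO cells with IFNγ and 8368 and 7186 in unstimulated FcgKO cells. In WT cells it had 15443 and 15873 with IFNγ and 11841 and 10999 without. The 4 groups did not overlap, and unstimulated FcgKO cells were lowest. Sod2 rose to 1.75 times the unstimulated mean in FcgKO (log2 fold change 0.81 ± 0.09, SE, adjusted p = 0.000101) and to 1.37 times it in WT (0.46 ± 0.09, adjusted p = 0.00475). Unstimulated FcgKO cells had 0.681 times the WT mean (-0.56 ± 0.09, adjusted p = 0.0147), while with IFNγ the difference was -0.20 and not called (adjusted p = 0.364). The difference without IFNγ lost its call without the first unstimulated WT or the second unstimulated FcgKO sample (adjusted p up to 0.148).

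Sod1, the cytosolic copper-zinc enzyme, averaged 2145 with IFNγ against 2749 without in FcgKO cells (log2 fold change -0.36, adjusted p = 0.0121). In WT cells it averaged 2224 against 3079 (-0.48, adjusted p = 0.0021). The FcgKO call was lost without the first unstimulated FcgKO or the second FcgKO sample given IFNγ (adjusted p up to 0.115). Catalase, which breaks down hydrogen peroxide in peroxisomes, had 250 and 248 in FcgKO cells with IFNγ against 323 and 331 without, and 360 and 303 in WT cells with IFNγ against 409 and 362 without. FcgKO cells with IFNγ were thus the lowest group. Cat fell with IFNγ in FcgKO (-0.45, adjusted p = 0.0111) and was lower there than in WT cells with IFNγ (-0.46, adjusted p = 0.0293), a genotype call lost without 1 of 5 samples taken singly (adjusted p up to 0.239). The FcgKO response was lost without 1 of 3 FcgKO samples (adjusted p up to 0.0814). In WT the response was -0.24 and not called (adjusted p = 0.163).

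The 24 glutathione transferases and Nqo1 held the member with the largest genotype difference of all 50. In each genotype 2 of them rose with IFNγ and 4 fell, and 2 were lower in FcgKO in each condition. Gsta3, an alpha-class transferase, had 157 and 179 in FcgKO cells with IFNγ and 254 and 261 in unstimulated FcgKO cells. It had 449 and 435 in WT cells with IFNγ and 686 and 664 in unstimulated WT cells. The groups were separate, and the highest FcgKO sample was below the lowest WT sample. FcgKO cells stood at 0.38 times the WT mean with IFNγ (log2 fold change -1.62 ± 0.08, SE, adjusted p = 4.67e-06) and 0.382 times it without (-1.52 ± 0.08, adjusted p = 1.45e-05). IFNγ lowered Gsta3 to 0.653 times the unstimulated mean in FcgKO (-0.75 ± 0.08, adjusted p = 0.000138) and to 0.655 times it in WT (-0.65 ± 0.08, adjusted p = 0.000339). These 4 calls held without each of the 8 samples. A second Gsta3 probe averaged 103, at the array median, and was called in no comparison. With the mean of both probes the genotype differences were -0.87 with IFNγ and -0.76 without, and the IFNγ responses were -0.41 in FcgKO and -0.30 in WT, all still called. Gsta3 and Fcer1g are both on chromosome 1, with 2217 annotated genes between them. Mgst3 is the other member on that chromosome, and its distance from Fcer1g was not read. It averaged 261 in FcgKO against 221 in WT with IFNγ and 297 against 264 without, and was called in no comparison.

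Nqo1, the quinone reductase often used as a readout of Nrf2, had 139 and 173 in FcgKO cells with IFNγ against 183 and 186 in WT cells with IFNγ. Unstimulated cells had 133 and 149 in FcgKO, against 223 and 192 in WT. It was lower in unstimulated FcgKO cells (log2 fold change -0.70 ± 0.13, SE, adjusted p = 0.037), and with IFNγ the difference was -0.32 and not called (adjusted p = 0.328). That call was lost without 1 of 5 samples taken singly (adjusted p up to 0.364), without background correction, with a smaller background offset, and with the mean of its 2 probes, which gave -0.36 (adjusted p = 0.163).

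Mgst1, a membrane-bound transferase with peroxidase activity, had 4023 and 4284 in FcgKO cells with IFNγ against 2462 and 2182 in unstimulated FcgKO cells. WT cells had 3930 and 3851 with IFNγ against 2481 and 2615 without. In each genotype the stimulated samples were above the unstimulated ones, and no genotype difference was called. It rose to 1.79 times the unstimulated mean in FcgKO (log2 fold change 0.85 ± 0.08, SE, adjusted p = 3.33e-05) and to 1.53 times it in WT (0.62 ± 0.08, adjusted p = 0.000326), and its second probe was called in the same direction. Gstk1, the kappa-class transferase of mitochondria and peroxisomes, averaged 337 with IFNγ against 275 without in FcgKO cells (0.33, adjusted p = 0.0277) and 377 against 266 in WT cells (0.57, adjusted p = 0.000983). The FcgKO call of Gstk1 was lost without any 1 of the 4 FcgKO samples (adjusted p up to 0.14).

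Gsto1, an omega-class transferase that reduces dehydroascorbate and removes glutathione from proteins, had 969 and 770 in FcgKO cells with IFNγ against 1361 and 1401 without. In WT cells it had 722 and 895 with IFNγ against 1508 and 1352 without. It fell to 0.629 times the unstimulated mean in FcgKO (log2 fold change -0.70 ± 0.13, SE, adjusted p = 0.00358) and to 0.565 times it in WT (-0.86 ± 0.13, adjusted p = 0.000885). Gstm1, a mu-class transferase, fell in both genotypes (-0.43 in FcgKO and -0.34 in WT) and was lower in FcgKO than in WT cells with IFNγ (-0.40, adjusted p = 0.00936). That genotype call was lost without the first WT or the second FcgKO sample given IFNγ (adjusted p up to 0.101), and the WT fall without the second WT sample of either condition (adjusted p up to 0.0692). With the mean of the probes of Gstm1 all 3 calls were lost, at -0.26 in FcgKO, -0.16 in WT and -0.23 between the genotypes. Gstt3, of the theta class, fell by 0.35 on the log2 scale in FcgKO and by 0.38 in WT, calls that were lost without any 1 of the 4 FcgKO samples and without the second WT sample of either condition. The pi-class Gstp1 was not called between the genotypes (-0.51 without IFNγ, adjusted p = 0.0662, and -0.37 with it, adjusted p = 0.112). Transferases of a class are close in sequence, and array probes can take up RNA of a related gene, so single members of these families are uncertain.

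**Figure D3:**
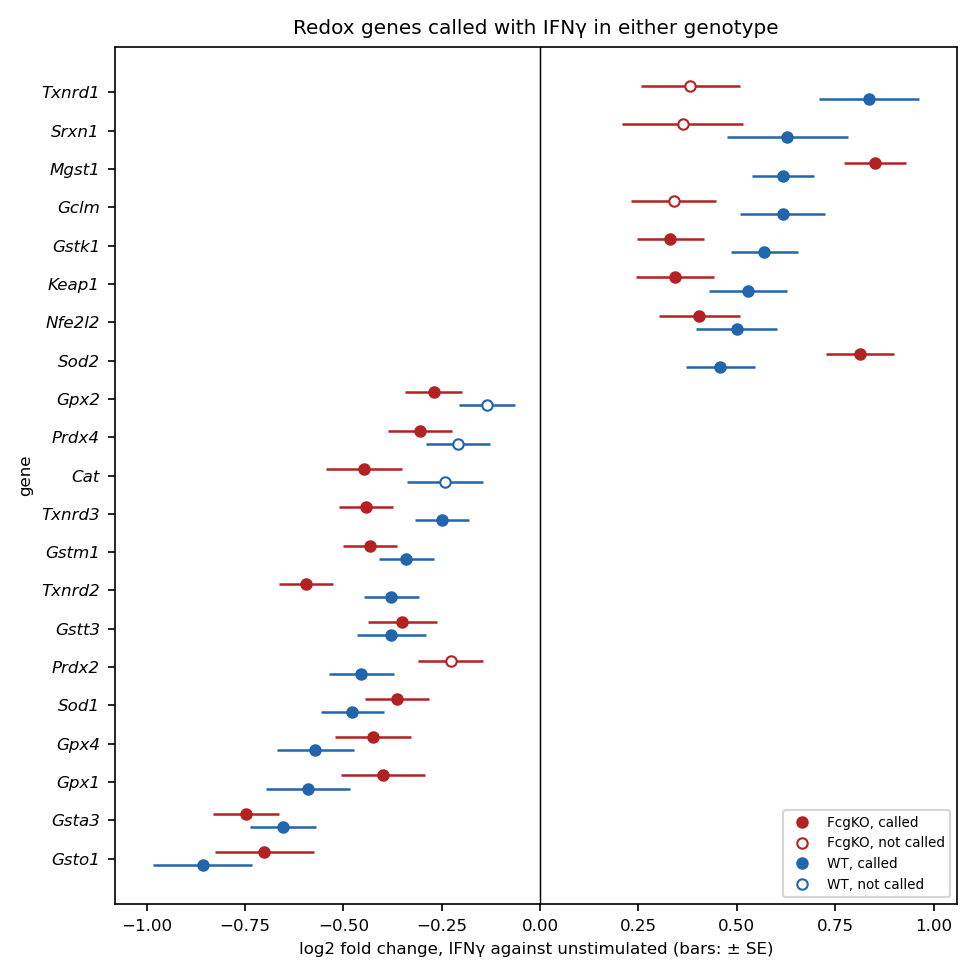
Log2 fold change with IFNγ in FcgKO and WT cells for the 21 redox genes called in at least 1 genotype, with bars for ± 1 SE, filled points for calls and open points for values not called. The values of the 2 genotypes have the same sign for each of the 21 genes.

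Of the 50 members, 27 were called in no comparison. Of these, 13 were above the array median on all arrays, among them Prdx1, Prdx3, Txn1, Gpx3, Gstp1, Mgst2 and Mgst3, with log2 fold changes from -0.43 to 0.51 with IFNγ and from -0.51 to 0.28 between the genotypes. The other 14 were at or under the median on at least 1 array, with intensities from 88.3 to 115 and log2 fold changes between -0.20 and 0.21 in these 4 comparisons, and 0 of the 14 were called. They include Gclc, Sod3, Gpx5, Gpx6, Gsta1, Gsta2 and Gsta4.

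Whether the response to IFNγ itself differs between the genotypes was tested as the difference of the 2 responses. By limma 0 of the 50 members passed, where 0.0181% of all genes were called, 0.00603% with the larger value in FcgKO and 0.0121% with the larger value in WT, and 3 members, or 6%, had an unadjusted p below 0.05, where 7.17% of all genes did. Sod2 had a response 0.36 larger on the log2 scale in FcgKO (adjusted p = 0.556), and Gss and Txnrd1 had responses -0.29 and -0.45 apart, FcgKO minus WT (adjusted p = 0.599 and 0.617). So Gclm, Srxn1, Txnrd1 and Prdx2, called with IFNγ in WT alone, and Cat, Gpx2 and Prdx4, called in FcgKO alone, were not shown to respond differently.

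Genes that work beside the members were read from 2 lists, chosen with earlier results of these data known. One held thiol cycle genes, which import cystine, make or recycle glutathione or use it for other reactions, and 23 of its 27 genes were measured. The other held further Nrf2 targets and regulators, with 23 of 24 measured. Between FcgKO and WT cells with IFNγ, 3 of 23 thiol cycle genes and 7 of 23 Nrf2 genes were lower and 0 were higher, where 1.62% of all genes were lower. Without IFNγ, 2 and 3 were lower and 0 were higher, where 0.53% of all genes were lower. Of genes above the median on all arrays, 3.24% were lower with IFNγ and 1.11% without. In each list 2 genes were under the median on all arrays. The median log2 fold change with IFNγ was -0.06 for the thiol cycle genes and -0.24 for the Nrf2 genes, against 0.00 over all genes.

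Slc7a11, the cystine transporter subunit that supplies cysteine for glutathione, had 1472 and 817 in FcgKO cells with IFNγ against 2830 and 3172 in WT cells with IFNγ (log2 fold change -1.48 ± 0.25, SE, adjusted p = 0.00858). Its unstimulated difference was -1.07 and not called (adjusted p = 0.104). Abcc1, an exporter of glutathione conjugates, averaged 159 against 304 with IFNγ (-1.11, adjusted p = 5.5e-05) and was lower without it too (-0.50, adjusted p = 0.0226). Cbr3, a carbonyl reductase, averaged 323 in FcgKO against 717 in WT with IFNγ (-1.25, adjusted p = 5.16e-05). Hmox1, heme oxygenase 1, had 2377 and 1844 in FcgKO cells with IFNγ against 4424 and 4441 in WT cells with IFNγ (-1.10, adjusted p = 0.00229). Sqstm1, the autophagy receptor p62 that binds Keap1, was lower with IFNγ (-1.04, adjusted p = 0.00207) and without it (-0.78, adjusted p = 0.0286). Akr1b8, an aldo-keto reductase, was lower without IFNγ as well (-0.68, adjusted p = 0.000582). Each of these 6 genes was lower in FcgKO cells with IFNγ.

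**Figure D4:**
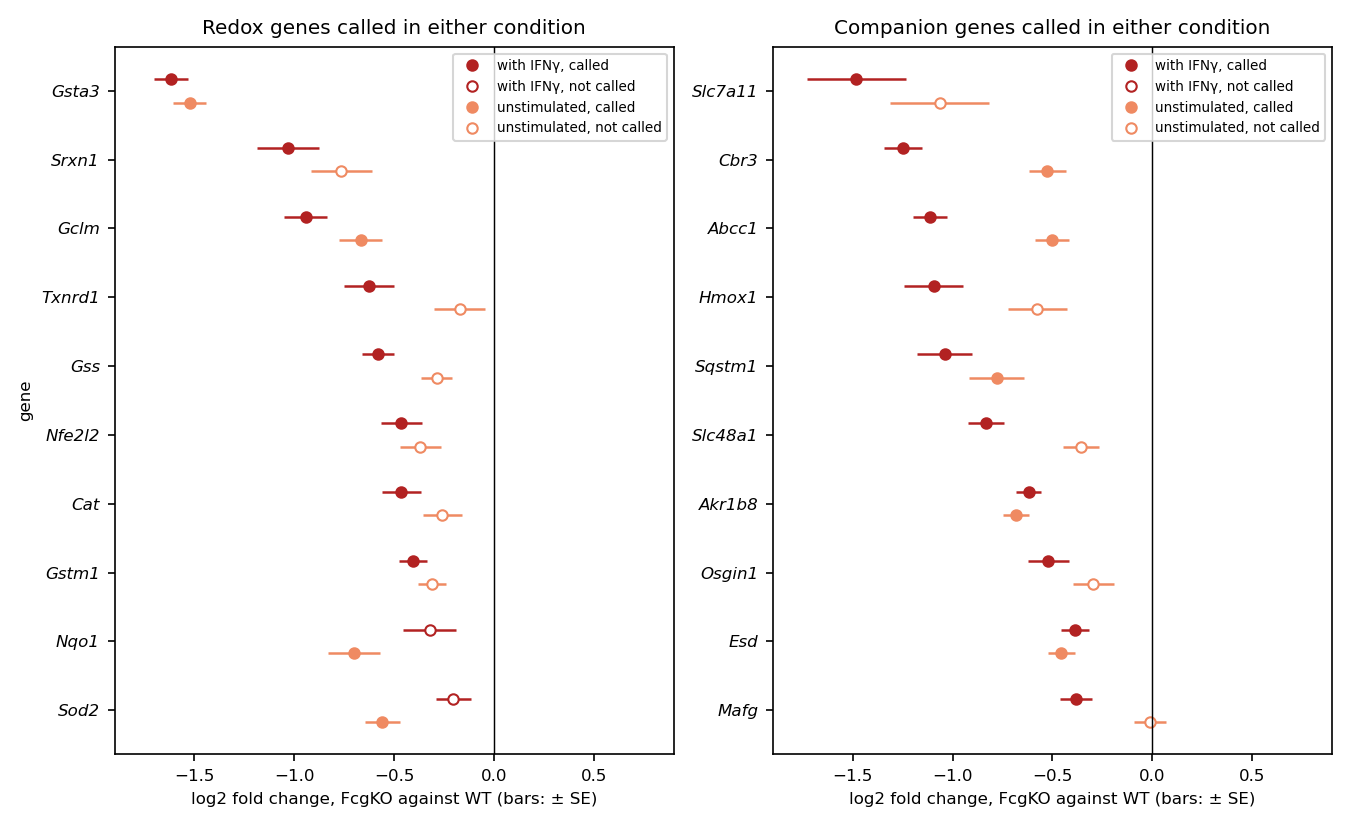
Log2 fold change of FcgKO against WT cells for the 10 redox genes (left) and the 10 companion genes (right) called in at least 1 condition, with IFNγ and without it, with bars for ± 1 SE, filled points for calls and open points for values not called. All called values lie below 0, from -1.62 for Gsta3 upwards.

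With IFNγ, 2 thiol cycle genes rose and 4 fell in FcgKO cells, and 4 rose and 4 fell in WT cells, where 12.2% and 13.3% of all genes were called. Ggct, which breaks down γ-glutamyl peptides, averaged 681 with IFNγ against 214 without in FcgKO (log2 fold change 1.85 ± 0.08, SE, adjusted p = 8.91e-08) and 710 against 187 in WT (2.15 ± 0.08, adjusted p = 2.68e-08). Txnip, the inhibitor of thioredoxin, rose by 0.29 on the log2 scale in FcgKO and by 0.44 in WT. Idh1, isocitrate dehydrogenase 1, averaged 459 with IFNγ against 1683 without in FcgKO cells, and 308 against 1892 in WT cells. Glo1 and Hagh, which together detoxify methylglyoxal with glutathione, both fell less than that, Glo1 by 0.65 in FcgKO and 0.46 in WT and Hagh by 0.77 in FcgKO and 0.94 in WT. Of the Nrf2 genes 2 rose and 8 fell in FcgKO, and 1 rose and 4 fell in WT. Hmox1 fell in FcgKO (-0.95, adjusted p = 0.00145), with -0.43 in WT (adjusted p = 0.0951).

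Markers of other cells in the peritoneum were read beside the genotype differences. Of 7 measured mast cell genes, 3 were lower in FcgKO without IFNγ and 5 with it. Cma1, mast cell chymase, averaged 277 in FcgKO against 597 in WT with IFNγ (log2 fold change -1.22) and 270 against 591 without (-1.25). The summed intensity of the 7 genes was 1573 to 1979 in FcgKO against 2691 to 2937 in WT with IFNγ, and 1373 to 1559 in FcgKO against 2210 to 2426 in WT without. Hdc, which is part of that sum, averaged 519 in FcgKO against 528 in WT with IFNγ, and 232 against 235 without. Hdc rose with IFNγ by 1.29 on the log2 scale in both genotypes, so the sum rose with it. Ms4a2 alone of the 7 was under the array median on all arrays. Of 7 neutrophil markers, 0 were called by limma, 2 had an unadjusted p below 0.05 in each condition, and their median log2 fold change was 0.02 with IFNγ and -0.05 without. Their sum was mostly S100a8, which averaged 2680 in FcgKO against 3788 in WT with IFNγ and 2121 against 2968 without, not called. The other 6 summed to 626 to 665 in FcgKO against 632 to 643 in WT with IFNγ. For B cells, 0 of 4 markers were called, 0 with IFNγ and 1 without had an unadjusted p below 0.05, and sums ranged over 1179 to 1499 in FcgKO and 1470 to 2202 in WT with IFNγ. The first replicate had the higher B cell sum in every group. Read by replicate number, FcgKO was lower each time, at 1499 against 2202 and 1179 against 1470 with IFNγ. Without IFNγ the sums were 1766 against 2362 and 1277 against 1582. Macrophage genes differed as well. With IFNγ 2 of the 6 macrophage markers were called, Fcgr1, the high-affinity IgG receptor, which was higher in FcgKO (1.10, adjusted p = 2.1e-05), and Mertk, an efferocytosis receptor, which was lower (-0.71, adjusted p = 0.00891). So were 2 of 5 markers of large peritoneal macrophages, Alox15 higher (0.60, adjusted p = 0.0266) and Timd4 lower (-0.85, adjusted p = 0.0464). Without IFNγ 0 of these 11 were called, with an unadjusted p below 0.05 for 2 macrophage and 2 large peritoneal macrophage genes. The part of any of these cells in the lower redox genes of FcgKO samples was not tested. Markers of eosinophils, all 3 under the array median on all arrays, and of T cells, dendritic cells, mesothelium and fibroblasts had 0 calls in either condition.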

How the data were processed

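RNA was hybridised to 8 Illumina MouseRef-8 v2.0 arrays, per the labels. The deposited intensity values, on a linear scale, were used as given. The submitters' processing notes name GenomeStudio, without a version. The sorted log2 values of the arrays differed by at most 0.00585, so the authors had normalised their intensities across arrays before deposit. How is not given in the sources used here. A second table has 16 columns whose samples could not be assigned, and none was used, so no detection p entered the results and the planned correction and filter with it were replaced.

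Intensities were corrected with normexp (offset 50) and taken to log2. The offset damps the folds of dim genes relative to a smaller offset. Log2 values of dim genes can still be larger in size than those of uncorrected intensities. For Fcer1a, FcgKO against WT without IFNγ, they were -0.67 and -0.54. Ratios given as times a mean are of uncorrected intensities. Of 25697 probes, 23978 had a single symbol in the platform annotation, and each of 16593 genes took its brightest probe, by the mean of the 8 arrays. All 50 members matched RefSeq by gene identifier. One mean per group was fitted over all arrays (limma 3.58.1, R 4.3.3, version 1.17.8 of data.table) with Benjamini-Hochberg adjustment over all genes, and residual degrees of freedom were 4 with a prior of 6.57. Arrays have no read depth, and their number limits the precision. The at-least fold of Fcer1g sets the mean log2 intensity of WT against the array median.

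Same-numbered samples of different groups deviated together with r from -0.006 to 0.236. Between unstimulated and IFNγ-treated samples of a genotype, r was 0.236 in FcgKO and 0.123 in WT. Because r was not above 0.1 in every pair of groups, replicate numbers were not treated as pairs in the main fit. The B cell sum and each measured T cell marker were nevertheless higher in the first replicate of every group. Whether same-numbered samples shared a preparation was not tested. A fit with the replicate number as a block is among the alternatives. Values in every sample are given for Nfe2l2, Keap1 and members called with a log2 fold change of at least 0.58 in size, and for others as families are described. The members, companion lists and markers were chosen with earlier results of these data known. Gss, Cat, Txn1, Slc7a11 and Hmox1, given by sample as well, were picked after their values were seen. The fit was tested on simulated data. Alternatives varied background, normalization, filter, probe, prior, samples fitted, replicate block and each sample left out.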

Additional observations from a re-analysis of the deposited data

How the results depend on the processing

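The counts of members called in the FcgKO response, the WT response, FcgKO against WT without IFNγ, FcgKO against WT with IFNγ, and the difference of responses were 17, 18, 4, 8 and 0. Without background correction the genotype counts were 2 without and 5 with IFNγ. With a background offset of 16 they were 1 and 5, and the FcgKO response had 9. With the replicate number as a block, the count without IFNγ was 7 and the others were 20, 19, 9 and 0. Leaving out each sample in turn gave 8 to 18, 13 to 19, 1 to 5, 4 to 8 and 0 to 0 calls. Quantile normalization, a filter on dim genes, the mean of all probes, a trended prior and fits of only the groups compared kept each count within 1.5 times its main value. The deposited arrays already shared nearly the same distribution. Quantile normalization could therefore change little, here or in the calls of single genes below, and is no separate check. The fits of only the groups compared were read for these counts and not for single genes. Under the other alternatives no call changed its direction. Single called genes kept their call in 598 cases of a gene under such an alternative and lost it in 107. Calls kept in every alternative read for single genes, left-out samples included, numbered 6 of 17, 11 of 18, 1 of 4 (Gsta3) and 3 of 8 (Gclm, Gss and Gsta3). Arrays have no depth, and the signal over background of 14 members at or under the array median on some array limits what their values can show.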
